A study of Rattus norvegicus with 2 samples.

Results

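Amino acid carriers of the solute carrier (Slc) superfamily were followed in rat oligodendrocyte-lineage cells after knockdown of the chaperone HSC70. Members were the rows of the deposited table whose gene symbol starts with Slc1a, Slc3a, Slc6a, Slc7a, Slc36a, Slc38a or Slc43a followed by a digit, which gave 54 of 18049 rows in 7 families. One of the 54, Slc7a6os, matched by its name only: it is a neighbour of the carrier gene Slc7a6 on the opposite strand and is not a carrier. Oligodendrocyte precursor cells (OPCs) had been panned from the cortices of wild-type rat pups aged P2 to P4 with antibodies against GalC and A2B5. Both groups were electroporated, one with a scrambled siRNA (siSCR) and the other with an siRNA against Hsc70 (siHsc70), whose gene is Hspa8. Both then received differentiation medium, which contained T3 (a thyroid hormone, at 60 nM) but no PDGF-AA, bFGF or NT3, and were sampled at day 2 of T3, a stage that the design text calls immature oligodendrocytes. Each group is 1 library, and the number of animals or cultures behind it is not given in the sources used here. Its siRNA, shown because it defines the treated group, is copied from the labels without capitals.
siHsc70: tcatgactgtcctcatcaa

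Cells cannot let charged or polar amino acids through their membranes without carriers. Sodium-driven carriers of the Slc1a, Slc6a and Slc38a families concentrate amino acids and transmitters inside the cell, whereas many Slc7a proteins exchange one amino acid for another. Most of those exchangers are light chains that reach the cell surface only when bound to a heavy chain of the Slc3a family, mainly the one encoded by Slc3a2. In the brain, glial carriers clear glutamate, GABA and glycine from the extracellular space, and cystine taken up by the Slc7a11 exchanger supplies cysteine for glutathione. Oligodendrocyte-lineage cells are known to be sensitive to loss of cystine uptake.

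The libraries held total estimated counts of 19085587 for siSCR and 18130768 for siHsc70 after rounding. Levels are given as CPM (counts scaled to a common library total with TMM factors) when 1 gene is compared between libraries, and as the deposited TPM, which is scaled for transcript length, when genes are compared with each other. A gene whose mean reached 1 CPM was called measured. Its difference is log2(CPM + 1) in siHsc70 minus siSCR, called at least 2-fold where it reached 1 in either direction. A fold value divides the scaled count of one library by that of the other, with no pseudocount added, and carries a 95% Clopper-Pearson interval that covers counting error only. Since each group has 1 library, the groups could not be tested against each other, and every difference below describes these libraries. Hspa8 itself, at 1399 CPM with siSCR and 507 CPM with siHsc70, was 2.76-fold lower (2.69 to 2.83).

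Of the 54 members, 35 were measured. Genes of the same family differed in opposite directions: the cystine exchanger gene Slc7a11 and its heavy chain Slc3a2 were higher in siHsc70, while the neuronal-type glutamate carrier gene Slc1a1 and the cationic carrier genes Slc7a1 and Slc7a2 were lower. At the 2-fold rule 1 member was higher, against 2.29% of the 13518 measured genes, and 2 members were lower, against 5.14%. These shares, 2.86% and 5.71% of the 35, are near those of all genes. At a 1.5-fold rule 9 members (25.7%) were higher, against 9.65% of all genes, and 4 (11.4%) were lower, against 12% of all genes, which leaves 22 members within 1.5-fold. The 9 higher members were Slc7a11, Slc7a3, Slc6a9, Slc7a8, Slc6a17, Slc7a7, Slc1a5, Slc3a2 and Slc7a10, and the 4 lower ones were Slc1a1, Slc7a2, Slc6a15 and Slc7a1. Using the deposited TPM, Slc1a5 (0.57), Slc3a2 (0.54) and Slc7a10 (0.52) fell short of the 1.5-fold rule on the higher side. Slc7a5 (-0.60), Slc6a6 (-0.62) and Slc7a6 (-0.72) then passed it on the lower side, so these counts depended on the scale. The median difference of the measured members was 0.098, against -0.0034 for all measured genes. With the deposited TPM the median of all genes shifted to -0.13 and that of the members to -0.025. The median of the members thus lay above that of all genes by a similar margin on both scales. On the CPM scale 20 members lay above 0 and 15 below, against 6724 and 6794 of all measured genes.

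**Figure D1:**
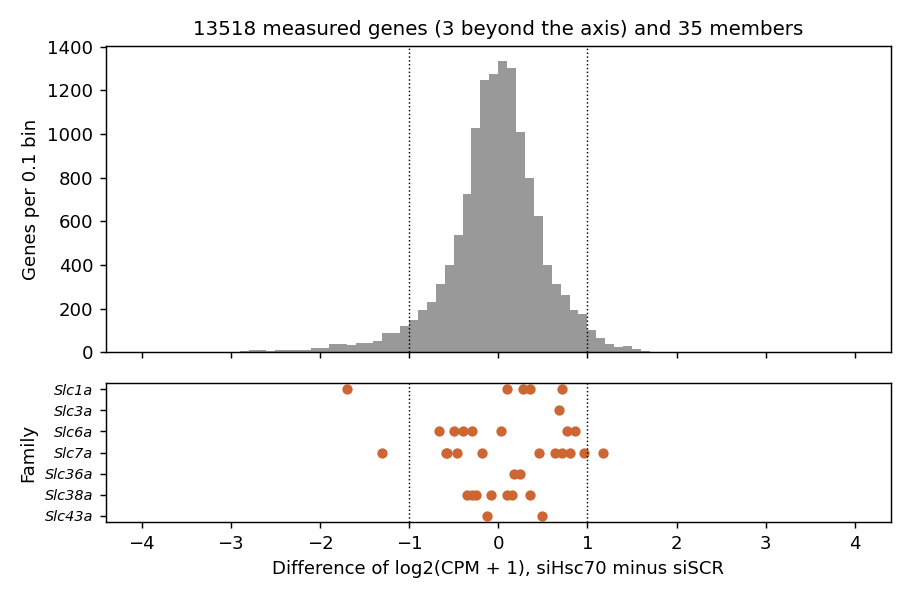
The upper panel is a histogram of the difference of log2(CPM + 1), siHsc70 minus siSCR, over 13518 measured genes in bins of 0.1, and the lower panel places the 35 measured members on the same axis, 1 point per gene, by family. Dotted lines mark the 2-fold rule at -1 and 1: Slc7a11 lies to the right of it, and Slc1a1 and Slc7a2 to the left.

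The level of a carrier in these cells, per transcript length, was led by the same members in both libraries. Slc3a2 ranked first with 912 TPM in siSCR and 1324 TPM in siHsc70, and Slc1a3, the glial glutamate carrier gene, ranked second with 851 and 836 TPM. Together with the third member in each library, Slc7a5 in siSCR and Slc7a11 in siHsc70, they made up 54.2% of the summed TPM of all member rows in siSCR and 59.6% in siHsc70. Slc7a5, a carrier gene for large neutral amino acids, went from rank 3 (274 TPM) to rank 5 (180 TPM), and Slc7a11 from rank 5 (169 TPM) to rank 3 (340 TPM). The creatine carrier gene Slc6a8 went from rank 4 to rank 9. Summed by family, the Slc3a share of the members' TPM was 24.3% in siSCR and 31.6% in siHsc70, the Slc1a share 32.9% and 28.3%, and the Slc7a share 19.1% and 19.9%. The remaining shares were 10.6% and 9.25% for Slc6a, 12.2% and 10.3% for Slc38a, 0.355% and 0.334% for Slc36a, and 0.432% and 0.354% for Slc43a.

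**Figure D2:**
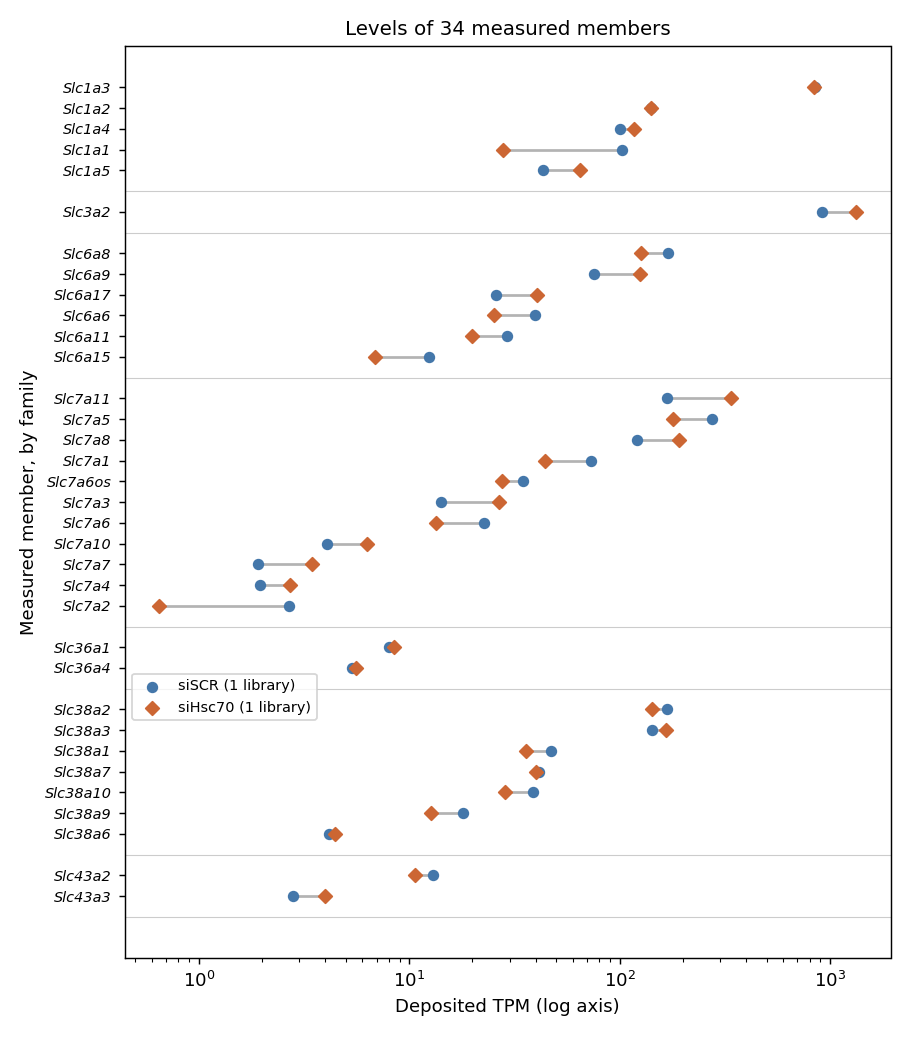
Deposited TPM on a log axis for 34 of the 35 measured members, grouped by family, with a circle for the siSCR library and a diamond for the siHsc70 library (1 library each, no error bars). Slc3a2 and Slc1a3 stand furthest to the right in both libraries, and the widest gaps are those of Slc1a1 and Slc7a2, with the siHsc70 value on the left.

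Among the heteromeric exchangers, Slc3a2 (gene ID 50567) and its light chains differed between the libraries in unlike ways. The heavy chain Slc3a2 had 15163 counts in siSCR and 22677 in siHsc70 (788 and 1261 CPM), 1.60-fold higher (1.57 to 1.63) in siHsc70. Slc7a11 (gene ID 310392), which imports cystine in exchange for glutamate, had estimated counts of 13034 and 27474 (677 and 1528 CPM) and was 2.26-fold higher (2.21 to 2.30). It was the 1 member past the 2-fold rule on the higher side. Slc7a8, whose product exchanges neutral amino acids, was at 233 and 407 CPM, 1.75-fold higher (1.68 to 1.81). By contrast Slc7a5, whose product carries leucine and other large neutral amino acids as well as thyroid hormone, was at 446 and 323 CPM, 1.38-fold lower (1.34 to 1.43). Slc7a6, which encodes an exchanger of cationic for neutral amino acids, was at 39.7 and 26.2 CPM, 1.51-fold lower (1.35 to 1.70), and its difference of -0.58 fell just short of the 1.5-fold rule. The low light chains were higher in siHsc70: Slc7a7, another cationic and neutral exchanger gene, was at 2.08 and 4.06 CPM, 1.95-fold higher (1.31 to 2.95). Slc7a10, whose product carries small neutral amino acids including D-serine, was at 3.79 and 6.45 CPM, 1.70-fold higher (1.26 to 2.31). The gene model of Slc7a10 overlaps that of Lrp3 (70.2 and 54.2 CPM) in RefSeq, and as the strand setting is not given in the sources used here, its reads may be shared.

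Because all light chains were counted in the same libraries, their make-up could be described free of the scaling between libraries. Slc7a5 was the leading light chain in siSCR with 46.3% of the summed light-chain TPM, followed by Slc7a11 with 28.5% and Slc7a8 with 20.3%. In siHsc70 Slc7a11 led with 46.2%, followed by Slc7a8 with 26.0% and Slc7a5 with 24.5%. The share of Slc7a6 was 3.84% and 1.83%. Summed over the light chains, the level was 593 TPM in siSCR and 735 TPM in siHsc70, or 0.650 and 0.555 TPM per TPM of Slc3a2. On the CPM scale, which is not scaled for length, the 6 measured light chains summed to 1402 and 2294 CPM. That sum was 1.64-fold higher in siHsc70, against 1.60-fold for Slc3a2. Whether the light chains were lower relative to the heavy chain thus depended on the measure. The count of Slc7a11 per count of Slc3a2 was 0.860 and 1.21, a 1.41-fold higher ratio (1.37 to 1.45, Woolf interval, counting error only). The count of Slc7a5 per count of Slc3a2 was 0.566 and 0.256, a 2.21-fold lower ratio (2.12 to 2.30), whereas that of Slc7a8 was 0.296 and 0.323, a 1.09-fold higher ratio (1.05 to 1.14). Of the 3, Slc7a8 thus differed least relative to the heavy chain, while Slc7a11 and Slc7a5 differed in opposite directions. The pairs of genes set against each other in this way, here and below, were chosen after their values were seen.

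**Figure D3:**
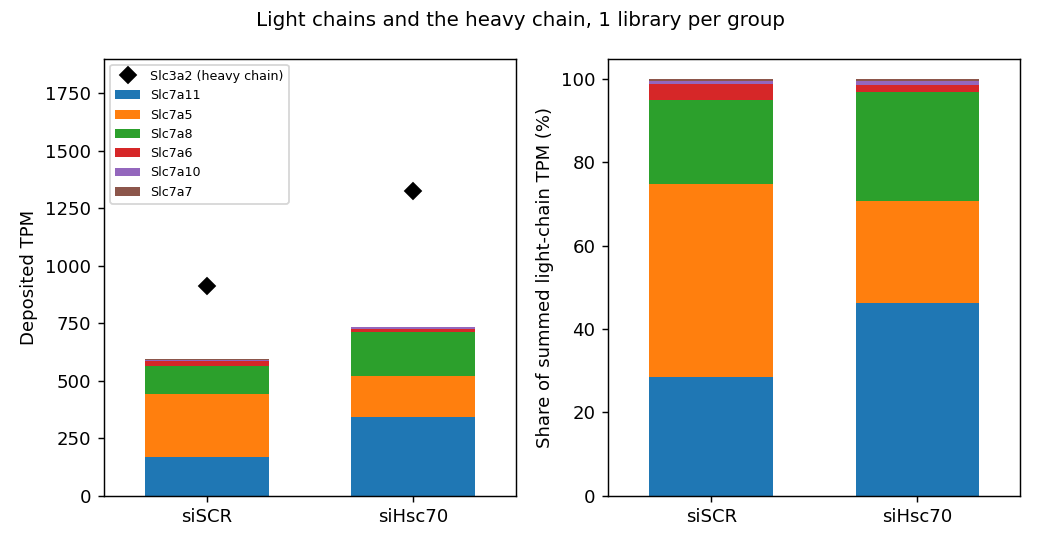
Left, deposited TPM of the 6 measured light chains stacked for each library (1 per group), with the heavy chain Slc3a2 as a black diamond; right, the share of each light chain in the summed light-chain TPM, in percent. The Slc7a11 segment is 28.5% in siSCR and 46.2% in siHsc70, and the Slc7a5 segment 46.3% and 24.5%.

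The cationic carriers of the Slc7a family, which import arginine and lysine without a heavy chain, split by gene. Slc7a1, the widely expressed member, had 4415 counts in siSCR and 2737 in siHsc70 (229 and 152 CPM), 1.51-fold lower (1.44 to 1.58). Slc7a2 was low in both libraries, with 86 and 22 counts (4.47 and 1.22 CPM), and was 3.65-fold lower (2.27 to 6.13). Slc7a3, a member known from brain, was at 15.1 and 30.3 CPM, 2.00-fold higher (1.74 to 2.32), and at 0.96 on the scale with the pseudocount it lay just outside the 2-fold rule. The count of Slc7a3 per count of Slc7a1 was 0.0658 and 0.199, a 3.03-fold higher ratio (2.60 to 3.52). Even so Slc7a1 remained the more abundant of the 2 per length, at 44.0 against 26.7 TPM in siHsc70. Slc7a4, a relative with no established transport activity, was at 2.29 and 3.50 CPM. The 4 measured genes of this group, Slc7a4 included, summed to 251 CPM in siSCR and 187 CPM in siHsc70, or 92.0 and 74.0 TPM. Slc7a14, not measured, had 7 counts and 0 counts, and a count of 0 allows up to 3. Slc7a6os was at 24.0 and 21.0 CPM, 1.14-fold lower with an interval (0.995 to 1.31) that includes 1.

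Glutamate carriers of the Slc1a family differed by member. Slc1a1 (gene ID 25550), whose product takes up glutamate and cysteine and is best known from neurons, had 1648 counts in siSCR and 463 in siHsc70 (85.7 and 25.7 CPM). It was 3.33-fold lower (3.00 to 3.70) and had the lowest difference of all measured members, -1.70. Slc1a3, the main glutamate carrier of glial progenitors and many astrocytes, had nearly equal counts, 29286 and 29297 (1522 and 1629 CPM), 1.07-fold higher (1.05 to 1.09), a difference that was -0.025 with the deposited TPM. Slc1a2, the chief glutamate carrier of mature astrocytes, was at 69.1 and 84.2 CPM, 1.22-fold higher (1.13 to 1.31), and at 141 TPM in both libraries. The count of Slc1a1 per count of Slc1a3 was 0.0563 and 0.0158, a 3.56-fold lower ratio (3.21 to 3.95). Per length, Slc1a1 stood at 102 TPM in siSCR, close to Slc1a4, and at 27.9 TPM in siHsc70, where it had moved from rank 10 to rank 19 among members. The place of Slc1a2 in that order depends on the transcript model behind the deposited values, since 1 FPKM of Slc1a2 stood for 19.7 counts in siSCR and 1 FPKM of Slc1a3 for 71.6. Slc1a6, a further glutamate carrier gene, had 13 and 7 counts and was not measured.

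The neutral exchangers of the same family were both higher. Slc1a5, which encodes a glutamine exchanger, was at 51.6 and 85.0 CPM, 1.65-fold higher (1.52 to 1.79). Slc1a4, whose product carries alanine, serine and cysteine, was at 93.7 and 120 CPM, 1.28-fold higher (1.21 to 1.37). The Slc1a family had a median difference of 0.28 over its 5 measured genes, above that of all genes, and 0.0082 with the deposited TPM, where the median of all genes was -0.13.

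Cell type markers also differed between the libraries, and in bulk libraries fewer cells of a type and less RNA per cell cannot be told apart. Of 12 oligodendrocyte and myelin markers 11 were measured, 10 of them at least 2-fold lower, and their summed level was 6912 TPM in siSCR and 1207 TPM in siHsc70. Of 8 precursor markers 7 were measured, with a median difference of -0.83, and 3 (42.9%) were at least 2-fold lower, against 5.14% of all genes. Gpr17 was 11.1-fold lower (10.2 to 12.1), Vcan 6.08-fold (5.57 to 6.65) and Cspg4 2.14-fold (1.93 to 2.37). The summed levels were 2729 and 2038 TPM, of which Olig1, the 1 marker above 0, held 1210 and 1236 TPM. Of 12 astrocyte markers 11 were measured, with summed levels of 3148 and 2398 TPM, a median difference of -0.077 and differences in both directions. At the 1.5-fold rule 2 were lower, both also past the 2-fold rule, 3 were higher and 6 lay within it. Gfap was 2.12-fold lower (2.08 to 2.17) and Aqp4 4.13-fold lower (3.69 to 4.64). Aldh1l1 was 1.61-fold higher (1.42 to 1.84), Sox9 1.54-fold (1.45 to 1.63) and S100b 1.52-fold (1.46 to 1.58). Within 1.5-fold, Gja1 was 1.41-fold higher (1.36 to 1.47). All 10 neuronal markers were measured, with summed levels of 396 and 264 TPM and differences in both directions: 6 were at least 1.5-fold lower, 4 of them past the 2-fold rule, and 2 were at least 1.5-fold higher. Microglial and endothelial or mural markers had low sums, 6.27 and 12.04 TPM and 14.6 and 31.1 TPM. Of these, 2 of 9 and 5 of 10 were measured, and Cx3cr1, Itgam, C1qa and Cldn5 matched no row. The microglial gene Aif1 had 0 counts in siSCR and 1 in siHsc70. Past the 2-fold rule, Cd68 was 2.61-fold higher (1.71 to 4.07). Col1a1, at 24.3 and 73.8 CPM, was 3.04-fold higher (2.74 to 3.39), and Kdr was 8.23-fold lower (3.27 to 26.6). Among these lists the oligodendrocyte markers had the lowest median, -2.25, and the part of any cell type in the lower Slc1a1 or the higher Slc7a11 was not tested.

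In the Slc6a family of transmitter and osmolyte carriers, a glycine and a vesicle-associated carrier gene were more than 1.5-fold higher and 1 gene was more than 1.5-fold lower. Of 15 members 7 were measured, 3 above 0 and 4 below, with a median of -0.30 that stayed below that of all genes under each scaling tried. Slc6a8, which encodes the creatine carrier and had the highest level of the family, had 5970 counts in siSCR and 4533 in siHsc70 (310 and 252 CPM), 1.23-fold lower (1.18 to 1.28). Slc6a6, the taurine carrier gene, was at 114 and 80.7 CPM, 1.42-fold lower (1.32 to 1.51). Slc6a11, a GABA carrier gene, was at 26.1 and 19.6 CPM, 1.33-fold lower (1.16 to 1.53).

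Slc6a9, which encodes the glial glycine carrier, had estimated counts of 2178 in siSCR and 3716 in siHsc70 (113 and 207 CPM). It was 1.83-fold higher (1.73 to 1.93) and, at 0.86, the member of Slc6a furthest from 0. Slc6a17, whose product loads neutral amino acids into vesicles of neurons, was at 78.4 and 135 CPM, 1.72-fold higher (1.61 to 1.84). Slc6a15, which encodes a carrier of proline and branched-chain amino acids, was at 20.6 and 12.6 CPM, 1.64-fold lower (1.39 to 1.94). These related genes thus lay on opposite sides, with 3.81 counts of Slc6a17 per count of Slc6a15 in siSCR and 10.7 in siHsc70, a 2.82-fold higher ratio (2.37 to 3.36). None of the monoamine carrier rows was measured: Slc6a2 had 2 and 0 counts and Slc6a4 had 3 and 2.

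**Figure D4:**
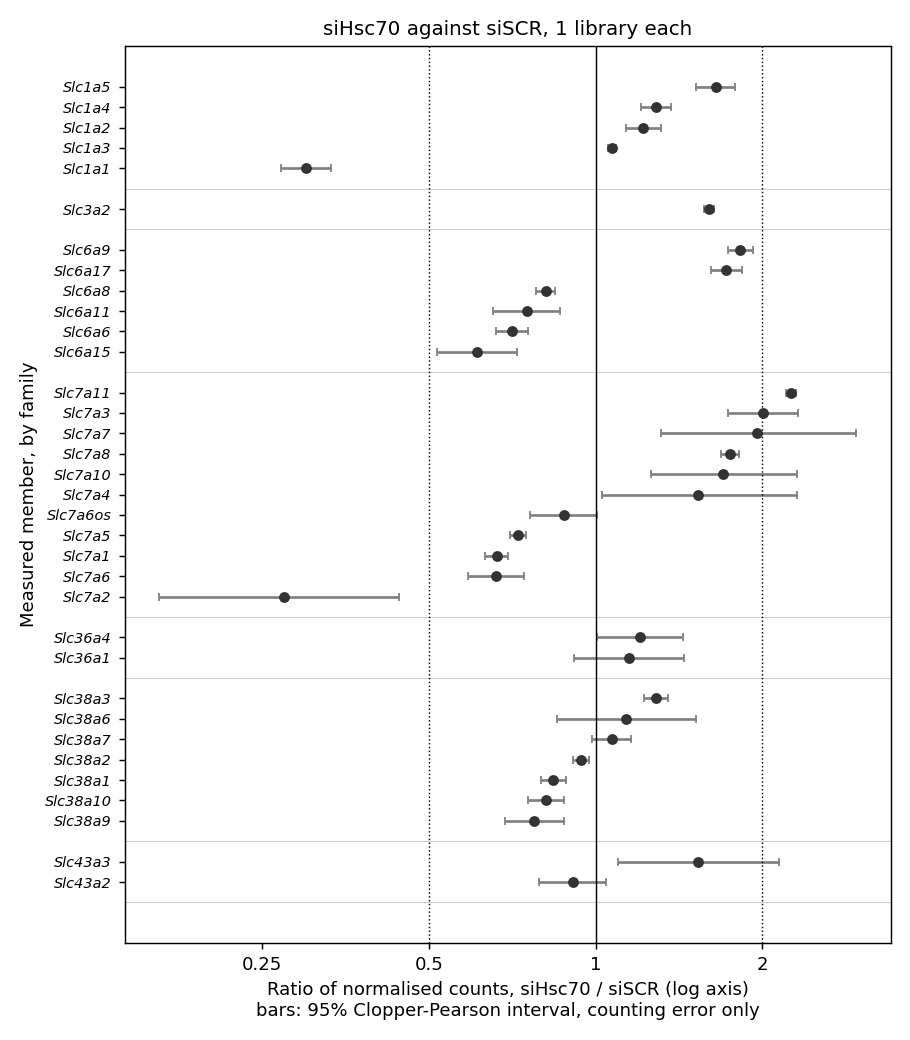
Ratio of normalised counts, siHsc70 over siSCR, on a log axis for 34 of the 35 measured members, grouped by family and ordered within it; bars are 95% Clopper-Pearson intervals that cover counting error only, with 1 library per group. The solid line marks a ratio of 1 and the dotted lines 0.5 and 2. The Slc38a genes lie between 0.775 and 1.28, while the Slc7a genes reach from 0.274 to 2.26.

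Glutamine carriers of the Slc38a family were at similar levels in both libraries. All 7 measured members of 10 were within 1.5-fold, as were 10588 of the 13518 measured genes, and the family median was -0.086. Slc38a2, a starvation-inducible carrier of small neutral amino acids and the family's most abundant gene, had 7008 counts in siSCR and 6168 in siHsc70 (364 and 343 CPM), 1.06-fold lower (1.03 to 1.10). Slc38a1, which shares its sodium-coupled mode of uptake, was at 165 and 139 CPM, 1.19-fold lower (1.13 to 1.26). Slc38a3, which encodes a carrier that moves glutamine in and out of astrocytes, was at 155 and 199 CPM, 1.28-fold higher (1.22 to 1.35). Among the lysosomal members, Slc38a9, which encodes a sensor of arginine for the growth-controlling kinase complex mTORC1, was at 32.3 and 25.02 CPM, 1.29-fold lower (1.14 to 1.46). Slc38a7, which exports glutamine from lysosomes, had 1201 and 1200 counts. Slc38a10 was at 84.9 and 69.0 CPM and Slc38a6 at 5.04 and 5.73 CPM, and the gene model of Slc38a6 overlaps that of Trmt5 (14.2 and 15.5 CPM). The 3 members not measured were Slc38a4, Slc38a5 and Slc38a8, the last with 17 and 3 counts. The gene model of Slc38a8 overlaps that of Necab2 (15.8 and 5.34 CPM), so its reads may be shared.

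The proton-coupled Slc36a and the Slc43a genes were low throughout. Slc36a1, a carrier gene of lysosomes and the cell surface, was at 7.85 and 9.01 CPM (1.15-fold higher, 0.914 to 1.44). Slc36a4 was at 12.5 and 15.1 CPM (1.20-fold higher, 1.01 to 1.44). Slc43a2, which encodes a facilitated carrier of large neutral amino acids, was at 22.9 and 20.8 CPM (1.10-fold lower, 0.956 to 1.27). Slc43a3, whose product carries purine nucleobases and not amino acids, was at 3.27 and 5.00 CPM (1.53-fold higher, 1.10 to 2.14). Over all families, 6 of the 35 measured members had an interval that includes a ratio of 1, among them Slc36a1, Slc38a6, Slc38a7, Slc43a2 and Slc7a6os.

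The 19 members under the minimum had at most 17 counts in a library. In siSCR 6 of them had 0 counts, namely Slc38a5, Slc6a16, Slc6a20, Slc6a5, Slc6a19 and Slc7a13, and in siHsc70 2 had 0, Slc6a2 and Slc7a14. Slc6a16 had 9 counts in siHsc70. The other heavy chain gene, Slc3a1, had 7.59 and 8.48 counts, and Slc43a1 had 11 and 4. The gene model of Slc3a1 overlaps that of Prepl (113 and 137 CPM), so its reads may be shared. For 11 of the 19 members both libraries were at or under 3 counts, and no ratio is given.

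Enzymes and sensors that handle the same amino acids were described with lists drawn up by function, and their counts are read against the same 2.29% and 5.14% of all genes. Of 18 listed enzymes of glycine, serine, taurine, creatine and sulfur amino acids 17 were measured, and Ckmt1 matched no row. Of the 17, 2 were at least 2-fold higher and 0 lower, with a median of 0.11. Both act on cysteine or its precursor: Cth, which makes cysteine from cystathionine, was at 15.3 and 39.5 CPM, 2.59-fold higher (2.26 to 2.97). Cdo1, which oxidises cysteine on the way to taurine, was at 24.9 and 63.6 CPM, 2.56-fold higher (2.29 to 2.85). Of 26 listed genes of the amino acid response, the programme driven by the kinase GCN2 and the factor ATF4, 22 were measured. The other listed symbols, Aars1, Gars1, Sars1 and Wars1, matched no row. Of the 22 measured genes 1 was at least 2-fold higher and 0 lower, with a median of 0.11. That gene was Nupr1, a stress-induced nuclear protein gene, at 3.64 and 14.7 CPM, 4.04-fold higher (3.09 to 5.33). For glutamate and glutamine metabolism and signalling, 16 genes were measured, and the 2 past the rule were both lower (median -0.067). Grm3, a glutamate receptor gene, was 5.50-fold lower (3.64 to 8.61) from 8.26 CPM, and Aldh5a1, whose product degrades GABA, was 2.24-fold lower (2.01 to 2.50).

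Amino acid sensing by mTORC1 was covered by 33 measured genes of 38 listed, as Rragb, Castor1, Castor2, Seh1l and Samtor matched no row. The median was 0.012, and no gene among them passed the 2-fold rule. The gene furthest from 0 was Fnip1, which encodes a partner of folliculin, 1.96-fold lower (1.80 to 2.14). In the arginine and polyamine list, 1 of 10 measured genes passed, Srm, the spermidine synthase gene, 2.36-fold lower (2.14 to 2.61), and the median was -0.11. None of 9 branched-chain enzyme genes passed, and Bcat1, the cytosolic transaminase gene, was furthest from 0 at 1.61-fold higher (1.56 to 1.65). Of 22 listed amino acid carriers outside the 7 families 13 were measured, and Slc66a1 and Slc66a4 matched no row. Of the 13, 1 passed, the lysosomal histidine and peptide carrier gene Slc15a4, 2.32-fold lower (2.12 to 2.55). These lists were small, and each held at most 2 genes past the rule in a direction.

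RefSeq promoter windows (GRCr8, 250 bases before to 50 after an annotated start, 300 in all) were found for 40 of the 54 members, as 44 windows. They were searched on both strands for the core of the amino acid response element, TGATGNAA, to which ATF4 and C/EBP proteins can bind, and for the SOX core ACAAAG. The first occurred in 3 of the 44 windows (6.82%), against 3.98% of all 33469 windows. Over measured genes alone it occurred in 3 of 29 member windows (10.3%), against 2.14%. The second occurred in 11 of 44 (25%) against 18.8%, and over measured genes in 5 of 29 (17.2%) against 13.4%. These shares count windows, not genes. The windows of Slc1a3 overlap and each hold the same SOX match, so that match was counted more than once. The other measured members with a SOX match were Slc38a2 and Slc7a7. The members with the response element core are shown because their values did not share a direction: Slc1a4 was 1.28-fold higher in siHsc70, while Slc38a1 was 1.19-fold and Slc7a1 1.51-fold lower. Each run is 60 bases on the strand of the gene, 5′ to 3′, with the match in capitals, which in Slc1a4 lies on the opposite strand. The match begins 235 bases before the start in Slc1a4 (chr14:98761753-98761812, minus strand), 142 before it in Slc38a1 (chr7:129681510-129681569, minus strand) and 30 before it in Slc7a1 (chr12:11664432-11664491, plus strand).
Slc1a4: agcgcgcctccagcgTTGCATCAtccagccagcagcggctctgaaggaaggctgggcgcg
Slc38a1: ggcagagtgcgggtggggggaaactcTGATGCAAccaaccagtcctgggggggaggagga
Slc7a1: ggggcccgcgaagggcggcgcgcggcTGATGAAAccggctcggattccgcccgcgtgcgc

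The window of Slc7a11 (chr2:136668215-136668514, minus strand) is given whole, as that of the 1 member past the 2-fold rule on the higher side. It holds neither of these letter strings and so has no capitals, which says nothing of the factors. The start lies after base 250 of the run.
Slc7a11: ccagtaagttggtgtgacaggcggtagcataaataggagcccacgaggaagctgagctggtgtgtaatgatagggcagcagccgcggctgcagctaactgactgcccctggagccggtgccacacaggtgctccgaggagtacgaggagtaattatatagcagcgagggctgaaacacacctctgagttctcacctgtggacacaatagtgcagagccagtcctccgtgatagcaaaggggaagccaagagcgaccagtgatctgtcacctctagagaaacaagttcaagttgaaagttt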

How the data were processed

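RNA sequencing of 2 libraries, 1 per group, was used through 1 deposited table. Per the file headers it holds estimated counts, FPKM and TPM for each library. The counts need not be whole, and 13 of the 54 members have a value that is not. The deposited FPKM and TPM values are scaled for length by the authors, per the file headers. The submitters' processing notes name the build mm39, whereas the gene IDs are rat, and all 54 IDs of the members were found in RefSeq (GRCr8). For the aligner, the counting program and the strandedness, the entry is "not given in the sources used here". Estimated counts were rounded, and TMM factors came from edgeR 4.0.16 in R 4.3.3 over all rows (1.01 for siSCR and 0.992 for siHsc70). A floor of 3 counts corresponds to 0.156 and 0.167 CPM. Intervals were exact Clopper-Pearson (scipy 1.17.1) or, for ratios of 2 genes, Woolf intervals. They cover counting error only, and PCR copies are not independent molecules. Calls used a rule of size, not a test, and the procedure was tested on simulated data. Those data were Poisson counts with known folds and library sizes. They cannot show the effect of spread between cultures or of PCR copies, which they do not hold. Measured members could be named with their CPM, and 1 of them is counted but not reported here. Full values were planned for those past 2-fold and, by family, for the most abundant and the furthest from 0. Folds and intervals are also given for other members, outside that plan. The members, lists and rules were chosen with earlier results of these data known. Settings tried were 2 other pseudocounts, 2 other minimum means, 3 other scalings (DESeq2 1.42.0 for 1), TPM, FPKM, a 1.5-fold rule, rows added by current symbol and, chosen after seeing the data, Slc7a6os left out.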

Additional observations from a re-analysis of the deposited data

How the results depend on the processing

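No paired analysis was possible because each group has 1 library, and for the same reason no replicate could be left out. Of the 35 measured members 32 kept the sign of their difference under all settings run, and 3, Slc1a3 and Slc38a7 among them, changed sign with the deposited TPM (-0.025 and -0.055 for these). With upper-quartile factors 2 members were at least 2-fold higher, as Slc7a3 reached 1.02. The number of lower members was 1 with a pseudocount of 5, with a minimum mean of 5 CPM and with the deposited FPKM, where Slc7a2 no longer passed or was not measured. Slc1a1 and Slc7a11 passed under each of these. At the 1.5-fold rule on the CPM scale there were 9 higher and 4 lower members, and 1304 and 1626 of all genes. Using the deposited TPM, Slc1a5, Slc3a2 and Slc7a10 fell short of that rule, while Slc7a5, Slc6a6 and Slc7a6 passed it on the lower side. Of all measured genes, 518 passed the 2-fold rule on the higher side with a pseudocount of 0.1, 132 with 5 (417 lower) and 203 with the deposited FPKM, against 310 (695 lower). With the deposited TPM 207 were higher and 810 lower. The difference of Hspa8 was -1.46, or -1.40 with upper-quartile factors and -1.60 with the deposited TPM. Rows with a matching current symbol added no measured member. Members under about 20 counts are limited by depth.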
